A study of Homo sapiens with 20 samples.

Results

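Decitabine (DAC) is a cytosine analog that is built into replicating DNA and traps DNA methyltransferases, so that cytosine methylation at CpG sites is lost as cells divide. ATAC-seq reads chromatin accessibility as sites that a transposase can cut, and a peak is a stretch with more cuts than its surroundings. Peaks far from a transcription start site (TSS) often lie at enhancers, insulators or repeats, and methylation of CpG sites goes with closed chromatin at many of them. Described here are the distal regions that had a peak after DAC in at least 2 lung cancer lines and no peak in any Mock library. They were chosen by presence and absence in the 8 deposited peak lists alone, so their counts and peak strengths are descriptions. Overlapping peaks of the 8 lists were merged into 208376 regions, of which 177088 lay over 3000 bp from any annotated TSS. Of these, 10619 (6.0%) met the rule and are called gained regions below.

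Omni-ATAC-seq was done in A549, H1299, CL1-5 and PC9, and mRNA-seq in these lines and in CL1-0 and H1792, all of them human lung cancer cell lines. The treated cells received 100 nM DAC for 72 h and were then kept without drug for 3 days, and the Mock cells received the vehicle, phosphate-buffered saline. Each line and treatment had 1 library per assay (8 ATAC-seq and 12 mRNA-seq libraries), so a line is the replicate and all spreads are between lines. A change in all cells of a culture and a change in some of them cannot be told apart in such bulk libraries.

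The lists differed in size, and the DAC list was the longer one in each line. It held 78199 peaks against 58734 in Mock in A549, 63541 against 45354 in H1299, 97584 against 85710 in CL1-5 and 91061 against 71204 in PC9. The depth of each ATAC-seq library is not given in the sources used here, and a list holds called peaks only, so a region without a Mock peak may still have had signal under the caller's threshold. The labels were checked with genes transcribed in 1 of the 4 lines only (Mock FPKM of at least 5 there and under 0.1 in the others). In the Mock lists, the library labelled CL1-5 had peaks at the promoters of 69.6% of the 69 PC9 genes, and the library labelled PC9 at 31.9%. For the 29 CL1-5 genes the shares were 41.4% and 37.9% in the same order, and in the DAC lists 17.2% and 34.5%. The names of these 2 peak lists are also exchanged against their labels. Lines are therefore named below as the ATAC-seq libraries are labelled, and the choice of the gained regions does not depend on it. The check singled out A549 (63.6% of 33 genes, at most 48.5% in another Mock library) but not H1299, where 12.5% of 88 genes had a promoter peak, as in the other libraries (11.4 to 13.6%). Among epithelial markers in the Mock mRNA, the keratins KRT8 and KRT18 were at 37.8 FPKM or more in these 4 lines, but at 0.154 and 0.118 FPKM in CL1-0. EPCAM was at 0.0555 FPKM in H1299 and 0.132 in CL1-5, and CDH1 at 0.0113 and 0.478, where the mesenchymal marker VIM was at 481 and 353. The lung genes SFTPC and NKX2-1 were at or under 0.182 FPKM in the 4 lines. Of the blood cell markers, PTPRC was at or under 0.0230 FPKM in them, and CD14 reached 4.23 FPKM in A549.

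The 10 gained regions with the strongest peaks in all 4 DAC lists are extremes and not typical of the part. They were ranked by the lowest of their 4 within-list percentiles of fold enrichment, which is the height of a peak over its local background. This lowest percentile was 65.4 to 80.8 in the 10. Its median was 18.1 in the 369 regions gained in 4 lines and 23.8 in the 8277 gained in 2. The lowest of 4 values tends to lie under the lowest of 2, so these 2 medians are not like for like. The first lay in an intron of CDC14A, which encodes a phosphatase of the cell cycle, 10450 bp from the TSS. Its fold enrichment was 9.51 in A549, 4.64 in H1299, 6.86 in CL1-5 and 5.81 in PC9. The region in an intron nearest to TMEM56-RWDD3 followed, with 7.41, 4.98, 4.63 and 5.46 in the same order. The region listed for LOC100506585 lay 296366 bp from that TSS, in an intron of another gene on chromosome 7. It reached 14.55 in A549 and 9.02 in H1299 but 4.396 in CL1-5 and 5.83 in PC9. The next were intergenic regions near TRH, the gene of thyrotropin-releasing hormone (3.95 to 5.46), and near RAPGEF4, which encodes an exchange factor activated by cyclic AMP (3.96 to 5.75). A region annotated as a 3′ UTR, listed for TMEM181 (3.74 to 7.45), was sixth and its sequence is not shown. Regions near PTBP2, LMNB1, HTRA3 and MSC-AS1 completed the 10. The middle 300 bp of 3 of these regions are given on the forward strand of GRCh37, with CpG sites, the positions that DNA methyltransferases act on, in capitals.
LOC100506585, chr7:157943771-157944070: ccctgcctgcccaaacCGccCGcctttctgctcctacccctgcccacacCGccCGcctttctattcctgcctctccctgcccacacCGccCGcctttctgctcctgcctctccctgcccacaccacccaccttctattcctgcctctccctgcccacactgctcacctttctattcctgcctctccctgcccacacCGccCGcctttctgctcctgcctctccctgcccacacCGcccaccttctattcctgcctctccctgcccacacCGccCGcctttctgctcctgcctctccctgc
RAPGEF4, chr2:173539295-173539594: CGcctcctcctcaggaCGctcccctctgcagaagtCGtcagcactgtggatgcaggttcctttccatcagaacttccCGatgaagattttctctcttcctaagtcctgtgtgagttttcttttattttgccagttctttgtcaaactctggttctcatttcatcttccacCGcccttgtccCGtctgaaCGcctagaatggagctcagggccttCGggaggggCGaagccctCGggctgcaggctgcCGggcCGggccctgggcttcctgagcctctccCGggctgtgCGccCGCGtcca
PTBP2, chr1:97311161-97311460: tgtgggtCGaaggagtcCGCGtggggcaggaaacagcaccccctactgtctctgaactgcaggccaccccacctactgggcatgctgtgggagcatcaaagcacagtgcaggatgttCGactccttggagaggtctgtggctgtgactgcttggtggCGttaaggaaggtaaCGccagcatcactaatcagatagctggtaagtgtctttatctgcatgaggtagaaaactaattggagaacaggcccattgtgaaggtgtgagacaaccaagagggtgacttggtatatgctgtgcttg

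These 3 windows held 6 to 16 CpG sites, and their GC content was 52.7 to 66.0%. The median number of CpG sites was 4 over all distal regions, 5 over gained regions and 7 over those gained in 4 lines. The window for LOC100506585 matched the SP and KLF motif GGGCGG, the binding letters of that zinc finger family, 6 times. The window repeats a similar stretch, and the matches lie in its copies.

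Gain recurred across lines more often than loss. Distal regions with a peak in DAC lists only numbered 8277 in 2 lines, 1973 in 3 lines and 369 in all 4, whereas the mirror image, with Mock and DAC exchanged, gave 2200, 205 and 10. The ratio of gained to lost regions was 1.66 for regions seen in 1 line, 3.76 in 2, 9.62 in 3 and 36.9 in 4. The total of 10619 gained stood against 2415 lost regions (1.36% of distal regions). When the longer list of each line was cut to the length of the shorter one, strongest peaks first, 5003 regions were gained and 3910 lost, a ratio of 1.28 in place of 4.397. The ratio still went from 1.15 in 2 lines to 2.18 in 3 and 4.93 in 4, and 4986 of the 10619 gained regions (47.0%) overlapped a region gained under this setting.

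**Figure D1:**
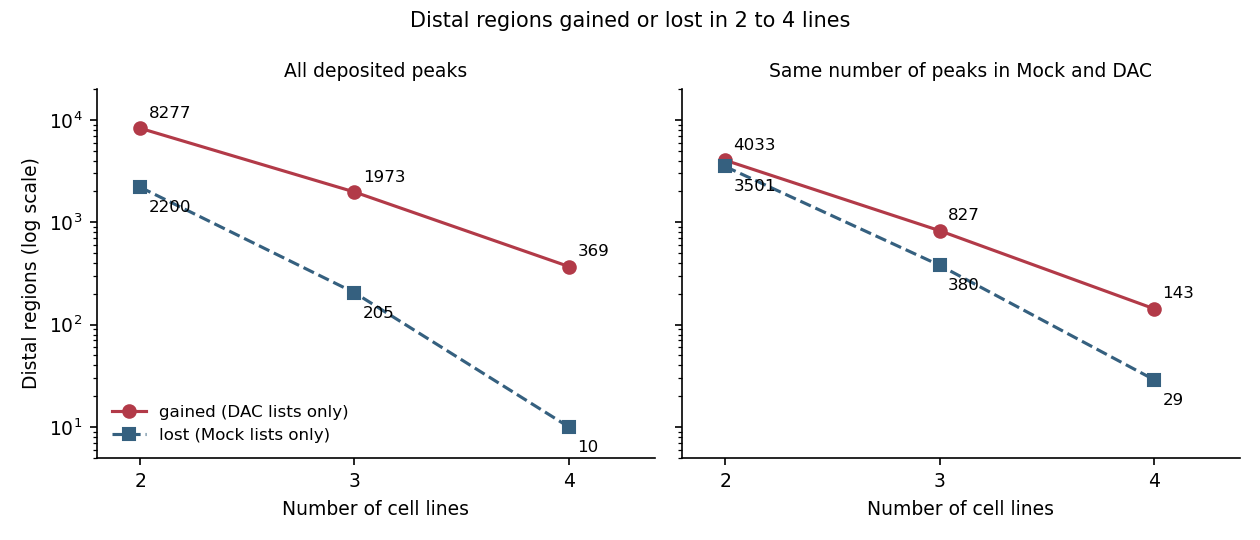
Number of distal regions (log scale) with peaks only in DAC lists (gained) or only in Mock lists (lost), by the number of cell lines, for all peaks (left) and for lists of equal length within each line (right). With all peaks 369 regions were gained and 10 lost in 4 lines, and with equal numbers 143 and 29.

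All 4 lines contributed. The gained regions included 6231 of the A549 DAC list, 4358 of H1299, 6261 of CL1-5 and 7099 of PC9, which is 8.26 to 10.8% of the distal peaks of a list. The commonest pattern was the pair of CL1-5 and PC9 (1949 regions, 18.4%), followed by A549 with PC9 (1843) and A549 with CL1-5 (1629). A549 with H1299 was the rarest pair, with 812. H1299 had the shortest DAC list.

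The peaks of gained regions were weak and narrow members of their lists. The median fold enrichment was 3.28 in A549, 2.87 in H1299, 3.12 in CL1-5 and 3.03 in PC9, against 3.66, 2.99, 3.47 and 3.23 for the other distal peaks of the same lists. Their median percentile within the list was 31.8 to 34.8, and 25.3 to 26.8% of them stood above the list's median. Peaks with a -log10 q of at least 2 made up 30.2% (H1299) to 53.2% (A549) of them, against 51.3 to 69.96% of the other distal peaks. The median width of a member peak was 358 to 397 bp, against 406 to 471 bp for the other distal peaks. Single peaks stood far higher, up to 18.6 in A549 and 18.5 in PC9.

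**Figure D2:**
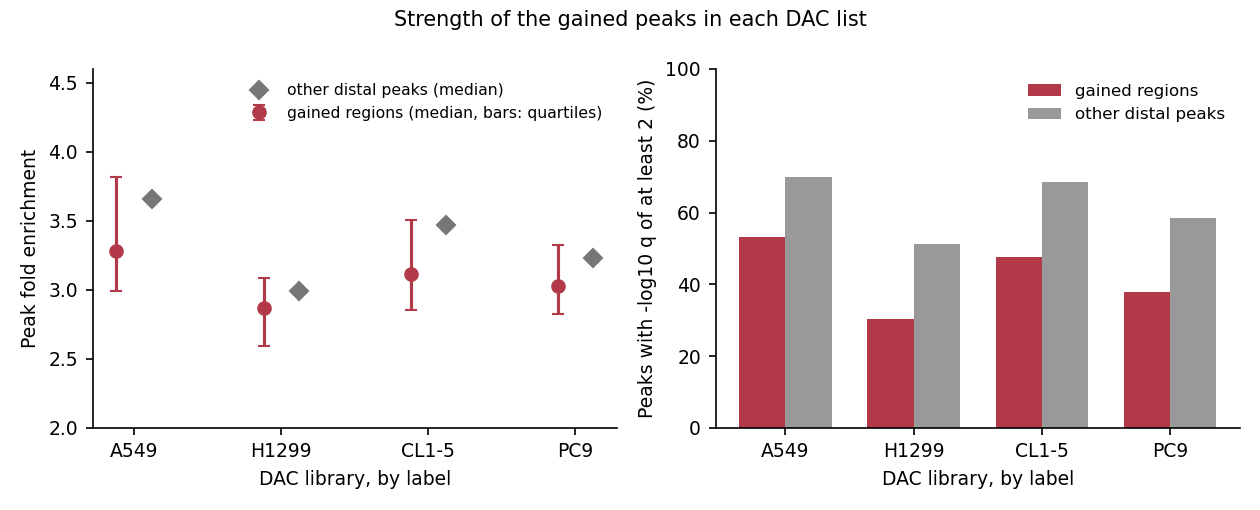
Fold enrichment of peaks (left; dots with bars, median and quartiles of gained regions; diamonds, median of the other distal peaks) and percent of peaks with a -log10 q of at least 2 (right) in the 4 DAC lists. Gained regions lie under the other distal peaks in each list, with 30.2 to 53.2% past the q limit against 51.3 to 69.96%.

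Recurrence went with width. The merged regions had a median width of 562 bp when gained in 2 lines, 716 bp in 3 and 830 bp in 4, a direction that merging more peaks also gives, and the median of their mean fold enrichment was 3.09, 3.16 and 3.23. The share within 10000 bp of a TSS was 19.6, 25.2 and 28.5%. Widths ranged from 205 to 4255 bp. The widest lay 9094 bp from the TSS of PDCD6, a calcium-binding protein gene, was present in all 4 DAC lists and had fold enrichments of 3.29 to 4.17. The next widest were a region of 2723 bp listed for RGMA and annotated as a 3′ UTR, and one of 2568 bp near PDCD5, each in 3 DAC lists.

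Gained regions lay mostly in introns and between genes. Introns held 44.5%, intergenic sequence 42.0% and exons 8.31%, against 41.4, 48.2 and 6.19% of all distal regions. The median distance to the nearest TSS was 25963 bp (quartiles 11581.5 and 62167 bp), shorter than the 31734.5 bp over all distal regions and longer than the 20209 bp of the 7839 distal regions present in all 8 lists. The gained regions closest to the limit of 3000 bp lay at 3004, 3005 and 3007 bp, and the regions just outside it at 2996, 2997 and 2998 bp.

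The share of distal regions that was gained differed between chromosomes. It was highest on chromosomes 21 (7.57%, 124 of 1639), 16 (7.39%), 20 (7.36%), 19 (7.35%) and 17 (7.17%). Among chromosomes 1 to 22 and X it was lowest on chromosome 13 (4.30%, 130 of 3020) and X (4.56%, 147 of 3221). Per Mb, chromosome 19 carried 7.58 gained regions and chromosome 13 carried 1.13. Within single lines, chromosome X gave 9.98% in A549, 9.67% in H1299 and 9.94% in PC9 but 4.69% in CL1-5. Chromosome 13 gave 10.03% in A549, 10.4% in H1299 and 9.61% in PC9 but 5.60% in CL1-5. Over all chromosomes, gained regions held 10.8% of the distal peaks in A549, 9.70% in H1299, 10.2% in PC9 and 8.26% in CL1-5. The low shares of these 2 chromosomes were thus clearest in the list labelled CL1-5. Of the distal regions lost, the share was also highest on chromosome 21 (1.71%) but stood at 1.23% on chromosome 16 and 1.13% on chromosome 17, under the 1.36% of the genome.

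Gained regions were also more frequent near chromosome ends. Within 5 Mb of an end lay 17.01% of the gained regions, 15.3% of the lost regions and 13.5% of all distal regions. In each DAC list the share of gained regions near an end exceeded that of the other distal regions, by line with 17.5% against 15.0% in A549, 15.98% against 13.6% in H1299, 17.1% against 13.3% in CL1-5 and 18.3% against 15.7% in PC9.

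Some gained regions lay close together along the chromosomes. Linked at gaps under 50000 bp, the gained regions formed 7145 chains, of which 5116 were single regions, and 144 chains had 5 or more regions and held 903 regions (8.50%). The fewer lost regions formed 1 chain of 5. Chains were not made for an equal number of other distal regions. Whether gained regions lay closer together than distal regions in general was therefore not tested. The longest chain had 17 gained regions in 409 kb of chromosome 7 around LINC01003, XRCC2, KMT2C and ACTR3B, where 64 distal regions lay in all (26.6%) and 1 was lost. XRCC2 encodes a protein of DNA repair and KMT2C a histone H3 lysine 4 methyltransferase. The next were 13 regions around EIPR1, ADI1 and TRAPPC12 on chromosome 2, 12 around INPP5A and NKX6-2 on chromosome 10, and 11 each around NXN with GLOD4 and around TBCD with ZNF750 on chromosome 17. In the NXN chain, 11 of 32 distal regions (34.4%) were gained and none was lost. These chains were chosen for their number of gained regions, so high shares follow at least in part from the choice.

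Single genes carried many gained regions. RPTOR, the scaffold of the mTORC1 kinase complex, was the nearest gene of 16, of which 14 were intronic. CUX1, a homeobox transcription factor, had 13, TRIO, a guanine nucleotide exchange factor, and KLHL29 had 12 each, and the SWI/SNF subunit ARID1B had 11. NXN, the gene of the redox protein nucleoredoxin, and TTC7B had 10 each. As a share of the distal regions listed for the gene these were 15.5% of 103 for RPTOR, 20.3% of 64 for CUX1, 12.4% of 97 for TRIO, 8.89% of 135 for KLHL29, 13.3% of 83 for ARID1B, 27.03% of 37 for NXN and 17.5% of 57 for TTC7B, against 6.0% of all distal regions. The genes were chosen for their number of gained regions, so shares above 6.0% follow at least in part from the choice. None of these genes passed the test of expression described below. Their log2 fold changes were between -0.39 (SE 0.21, TTC7B) and 0.35 (SE 0.18, NXN), with adjusted p from limma of 0.45 to 0.98.

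Sequence, which the rule did not use, set gained regions apart from several other classes. The middle 300 bp of the 10608 gained regions on chromosomes 1 to 22, X and Y held 6.28 CpG sites on average. The 53607 regions with a peak in 1 DAC list only held 4.81, the 2412 lost regions 4.65, all distal regions 5.29 and the distal regions of all 8 lists 10.3. The mean went from 6.02 for regions gained in 2 lines to 7.01 in 3 and 8.04 in 4. At least 10 CpG sites were held by 19.04% of gained, 9.49% of lost and 36.2% of always open windows. Read the other way, 3.21% of the distal regions without a CpG site in the window were gained, 4.14% with 1 to 2, 5.67% with 3 to 5, 7.95% with 6 to 9 and 9.28% with 10 to 19, but 6.01% with 20 or more. The share lost went from 1.89% without a CpG site to 0.941% with 10 to 19. With equal peak numbers, gained windows held 6.76 sites and lost windows 5.01.

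The test over lines depended on what the gained regions were set against. Set against the other distal regions of the same DAC list, they held 0.055 fewer CpG sites per window in A549 (6.89 against 6.94), 0.493 fewer in H1299, 0.461 more in CL1-5 and 0.113 more in PC9. The mean difference was 0.0067 ± 0.396 (SD, n = 4; exact sign-flip permutation test, two-sided, p = 1). Set against regions in 1 DAC list and no Mock list, they held more in 4 of 4 lines, with a mean difference of 1.52 ± 0.364 (SD, n = 4; exact permutation p = 0.13). That p is the smallest that 4 lines can give, and the lines share regions, so they are not independent. GC content was higher than in the other distal regions in 4 of 4 lines, by 0.842 ± 0.611 percentage points (SD, n = 4; exact permutation p = 0.13). Lost regions held 1.08 to 2.19 fewer CpG sites than the other distal regions of their Mock lists in 4 of 4 lines. Set against the distal regions present in all 8 lists, a comparison added after the data were seen, gained regions were lower in 4 of 4 lines, with differences of -3.93 ± 0.344 CpG sites and -2.75 ± 0.30 percentage points of GC (SD, n = 4; exact permutation p = 0.13 each). The difference between gain and loss, each against the other distal regions of its lists, was 1.67 ± 0.0868 sites (SD, n = 4; exact permutation p = 0.13).

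Motifs were searched as fixed letters on both strands of the same windows. The AP-1 motif TGANTCA, bound by FOS and JUN proteins, was in 10.99% of gained windows, 14.7% of lost windows, 15.4% of all distal windows and 16.1% of those open in all 8 lists. It was rarer in gained than in other distal regions of the DAC list in 4 of 4 lines, by 3.25 (H1299) to 7.61 (CL1-5) percentage points. The TEAD motif GGAATG was in 16.4% of gained and 18.8% of all distal windows, and was rarer in gained regions in 4 of 4 lines. The core of the insulator protein CTCF, AGNNGGCGC, was in 3.36% of gained, 3.07% of all distal and 11.4% of windows open in all 8 lists. Set against the other distal regions of the same DAC list it was lower in gained regions in 4 of 4 lines, with a mean difference of -1.40 percentage points. The NFY motif CCAATCA, which holds the CCAAT box, was in 5.99% of gained windows, 4.07% of all distal and 3.11% of lost windows, and in 5.41, 7.91 and 8.67% of those gained in 2, 3 and 4 lines. By line it was in 7.73% of gained against 5.08% of other distal windows in A549, 6.90 against 4.98% in H1299, 4.57 against 3.64% in CL1-5 and 5.96 against 4.32% in PC9. The forkhead motif TGTTTAC was in 5.19% of gained and 4.77% of all distal windows, and YY1's ATGGCGG in 2.99 and 2.24%. Of the 14 motifs, 9 differed with 1 sign in 4 of 4 lines, these 6 and the E-box CACGTG, the NRF1 core GCGCATGCG and the ZBTB33 and BANP motif TCGCGAGA. Their exact sign-flip permutation p was 0.13 each, the smallest possible, and 0.194 after Benjamini-Hochberg adjustment over the 14 motifs, so none passed.

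Part of the gained regions shared long identical stretches. Of 13586 runs of 20 bases held by at least 40 distal windows on either strand, 486 had at least 20% of their windows gained, which is 3.33 times the 6.0% of all windows. At the same multiple of the 1.36% lost, a limit of 4.55%, 236 runs reached it. Fewer windows of a run suffice for that limit, so the 486 and the 236 are not like for like. This search was made after the values were seen and is a description. Joined by shared windows, the 486 runs fell into 9 groups with 2545 of the 176759 distal windows. Of these 2545, 430 were gained (4.05% of the gained windows) and 17 lost. The runs were chosen for their share of gained windows. High gained shares, here and in the single groups, therefore follow at least in part from the choice. The largest group had 305 runs in 1407 windows, of which 233 (16.6%) were gained, 5 lost and 48 open in all 8 lists, and 92.0% of its windows held CCAATCA. The other large group had 164 runs in 869 windows, of which 141 (16.2%) were gained, 12 lost and 2 open in all 8 lists. It was rich in CpG (18.1 sites per window) and lacked the NFY motif in all but 4 windows. Windows of both groups lay on 24 chromosomes. The windows with any run of the 9 groups held 225 of the 635 gained windows with the NFY motif (35.4%). In the remaining windows NFY was in 4.03% of the gained and 3.36% of all distal ones, and the difference from the other distal windows of the list was 1.125 percentage points in A549, 0.672 in H1299, 0.562 in CL1-5 and 0.241 in PC9.

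The removal of reads that map to several places is not described in the sources used here, so peaks in such families may share reads between copies, which was not tested. No repeat annotation was used here, and the families are left unnamed.

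The question that the mRNA-seq allows is whether genes near gained regions changed expression. A gene was found in the expression table for 9597 of the 10619 regions (90.4%), giving 5903 nearest genes, of which 4837 passed the filter of a mean FPKM of 0.1. They were 21.4% of the 22603 genes tested, and 3862 of the 5903 had 1 gained region. DAC and Mock were compared over all lines but H1792 with limma on log2(FPKM + 0.1), with the line as a block.

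The test called 2 of 4837 higher (0.0413%) at an adjusted p under 0.05, against 27 of 22603, which is 0.119% of all genes tested, and 0 lower. At an unadjusted p under 0.05, 423 (8.75%) were higher against 8.07% of all genes, and 185 (3.82%) were lower against 4.4%. Their median log2 fold change was 0.062, against 0.068 over all genes, 0.053 over 8645 genes nearest to other distal regions only and 0.047 over 1426 genes nearest to lost regions. Of the nearest genes, 444 (9.18%) were higher in 5 of 5 lines against 6.76% of all genes, and 229 (4.73%) were lower in 5 of 5 against 4.39%. Neither the medians nor these shares were matched for Mock level. In limma-voom on the reads recovered from the FPKM values, which was added after the data were seen, 46 nearest genes (0.951%) were higher, against 0.88% of all genes. The median was 0.063 for genes with 1 gained region and 0.072 for the 172 with 5 or more, and 0.048 for genes whose closest gained region was within 10000 bp and 0.069 where it was over 10000 and up to 50000 bp away. Genes nearest to regions gained in 4 lines had a median of 0.064 (307 genes, 0 called at the adjusted threshold in limma and 24 higher at an unadjusted p under 0.05).

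Nearest genes had a median Mock level of 3.14 FPKM, against 1.10 FPKM over all genes tested. At an unadjusted p under 0.05, the higher genes were 12.1% of nearest and 7.48% of other genes with a median Mock level over 0.1 and up to 1 FPKM, 6.10 and 5.57% from 1 to 10 FPKM, and 1.91 and 1.54% over 10 FPKM. Genes with a median Mock level of at most 0.1 FPKM passed the filter largely through their DAC values, so no share or median is read from them.

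Genes with a gained promoter region had larger medians. Of the 4837 genes, 375 also had a promoter region (within 3000 bp) gained in at least 2 lines and none in Mock, with a median log2 fold change of 0.13 and 13.6% higher at an unadjusted p under 0.05. The other 4462 had a median of 0.056 and 8.34%. Genes with a gained promoter region but no gained distal region, 411 in number, had 0.12 and 18.2%, and 8 of them (1.95%) passed the adjusted threshold, against 0.119% of all genes. Median Mock levels differed, with 1.22 FPKM in these 411, 2.19 in the 375 and 3.22 in the 4462. The classes were not matched for level and include genes of at most 0.1 FPKM in Mock. Whether the promoter region accounts for the difference was not tested.

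By line, the share of genes at least 2-fold higher was computed for the genes nearest to a gained region of that line's DAC list and for all genes. It was 12.1% (399 of 3296) against 15.5% in A549, 8.79% (225 of 2559) against 8.18% in H1299, 5.07% (169 of 3331) against 7.25% in CL1-5 and 6.99% (251 of 3593) against 10.2% in PC9. The mean excess was -2.06 ± 1.87 percentage points (SD, n = 4), below 0 in 3 of 4 lines and not tested, and at a pseudocount of 1 it was -0.164 ± 0.285, below 0 in 2 of 4. At least 2-fold lower were 3.398% against 6.69% in A549, 3.99% against 3.15% in H1299, 1.71% against 5.05% in CL1-5 and 0.724% against 3.1% in PC9. Genes whose gained regions were in other lines only were 2-fold higher in 10.7% of cases in A549, 9.92% in H1299, 5.58% in CL1-5 and 6.75% in PC9. The difference, with minus without, was -0.00025 ± 1.09 percentage points (SD, n = 4; exact sign-flip permutation test, two-sided, p = 1). With the ATAC-seq libraries labelled CL1-5 and PC9 exchanged, the mean excess was -1.92 percentage points and the difference, with minus without, was 0.456 ± 1.10 (SD, n = 4; above 0 in 3 of 4 lines, exact sign-flip permutation p = 0.5), the latter computed after the data were seen.

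**Figure D3:**
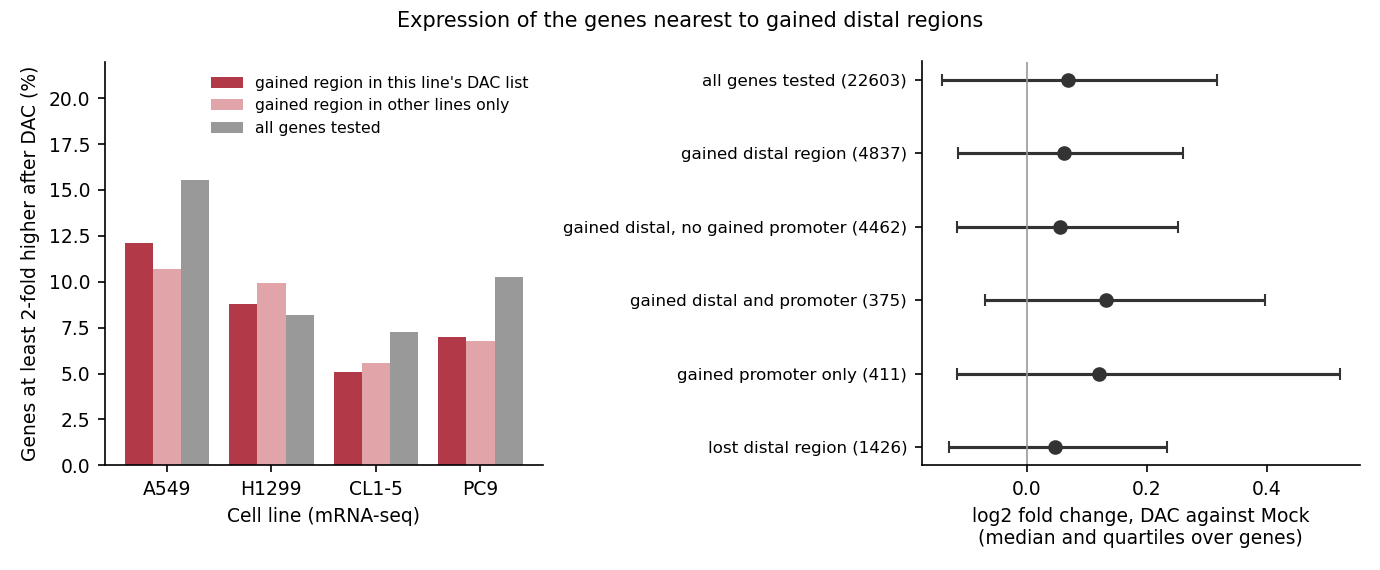
Left, percent of genes at least 2-fold higher after DAC on log2(FPKM + 0.1) in each line, for nearest genes whose gained region is in that line's DAC list, for those with gained regions in other lines only and for all 22603 genes; right, median and quartiles of the log2 fold change by class of gene, with the number of genes. Over all expression levels, the median is 0.062 for nearest genes and 0.068 for all genes. The classes with a gained promoter region lie higher (0.13 and 0.12). The classes were not matched for Mock level.

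The 2 called genes had few and distant gained regions. SPDYC, a member of the Speedy family of cell cycle regulators, had, for Mock and then DAC, 0 and 2.91 FPKM in A549, 0.0427 and 2.11 in CL1-0, 0.0372 and 0.665 in CL1-5, 0.0485 and 1.26 in PC9, and 0 and 2.86 in H1299. The DAC value exceeded each Mock value in all 5 lines, and the log2 fold change was 3.89 (SE 0.39; adjusted p = 0.027 in limma). Its gained region, chr11:64924766-64925184 in hg19, was intergenic and lay 12523 bp upstream, in the DAC lists labelled CL1-5 and PC9 with fold enrichments of 2.83 and 3.35. TSPYL6, a relative of the testis protein TSPY, went from 0 to 1.31 FPKM in A549, from 0 to 0.230 in CL1-0, from 0 to 0.653 in CL1-5, from 0 to 0.937 in PC9 and from 0.0113 to 2.38 in H1299. Its log2 fold change was 3.26 (SE 0.39, adjusted p = 0.048 in limma). Its 2 gained regions, chr2:54506459-54506823 and chr2:54426293-54426773, were in the lists of A549 and PC9. They lay 23050 bp upstream and 56636 bp downstream of the TSS. Both were annotated as intronic, and the upstream one lay outside the transcript it was listed for. These fold changes rest on the pseudocount, and both genes passed the filter on low values only through their DAC levels, so that they had to differ. With no filter neither was called in limma (adjusted p of 0.14 and 0.19). Over 13 distinct other fits, SPDYC was called in 5 and TSPYL6 in 4, and neither was called in the 5 of these that left out 1 line (adjusted p of 0.072 to 0.14 for SPDYC and 0.057 to 0.23 for TSPYL6).

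Other nearest genes with large folds in 5 of 5 lines did not pass the adjusted threshold of limma; 1 further gene among the 8 highest is not described here. IFI27, an interferon-induced gene, had a log2 fold change of 3.51 (SE 0.69, adjusted p = 0.175) and stood at 19.7 FPKM after DAC in A549 and 29.7 in CL1-5, against 0.282 and 1.29 in Mock. Its gained region, 4084 bp from the TSS, was in the lists of H1299 and PC9. MYL9, a myosin regulatory light chain, had 3.42 (SE 1.00, adjusted p = 0.29), the dehydrogenase gene DHRS2 3.42 (SE 0.63, adjusted p = 0.15), the homeobox gene RHOXF2B 3.34 (SE 0.61, adjusted p = 0.15) and the noncoding RNA PICSAR 3.07 (SE 0.82, adjusted p = 0.27). RHOXF2B has a near-identical copy, so its reads may be shared. The lowest were LMF1 (-1.21, SE 0.29), TSSK6 (-0.95, SE 0.19), NIBAN1 (-0.95, SE 0.28), IFT140 (-0.94, SE 0.27) and BTBD2 (-0.93, SE 0.14), with adjusted p of 0.086 to 0.29. BTBD2 had from 10.1 to 15.0 FPKM in the 5 Mock libraries of the fit and from 5.38 to 7.37 after DAC, without overlap, but in H1792, outside the fit, it was at 15.9 FPKM in Mock and 15.8 after DAC. Of the genes nearest to the named regions, CDC14A had 0.53 (SE 0.19, adjusted p = 0.34) and HTRA3, a secreted protease, 1.39 (SE 0.77, adjusted p = 0.48), where A549 was at 0.239 FPKM in Mock and 14.0 after DAC and PC9 at 2.36 and 2.15.

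Gene lists were counted by symbol. Of 81 genes taken by cancer testis symbols, 71 were tested, their median log2 fold change was 1.51 and 7 were called higher in limma. Gained regions were listed for 4 of the 81, CTAGE6, MAGEB16, SSX2IP and CTAGE1, of which 0 were called higher or lower and 0 passed an unadjusted p under 0.05. SSX2IP, the gene of a protein that binds SSX2, is in the list by its symbol alone. CTAGE6 and CTAGE1 entered it because their symbols begin with CTAG. Of the distal regions listed for this group, 3.70% (5 of 135) were gained, under the 6.0% of all. Of 25 interferon response genes, 4 had a gained region (4 of 96 distal regions, 4.17%), and these had log2 fold changes of 3.51 (IFI27), 1.93 (IFI44), 1.46 (MX2) and 0.94 (IFI44L). For 3 of the 4 the unadjusted p was under 0.05, against 8.07% of all genes tested, and none passed the adjusted threshold. The 21 interferon genes without one had a median of 1.42, and 1 of the 25 was called.

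Of 21 Wnt antagonists and tumour suppressors often methylated in lung cancer, 9 had gained regions (22 of 390 distal regions, 5.64%, against 6.0% of all), among them RUNX3 with 5 and SOX17 with 4. Their median log2 fold change was 0.32, against 0.15 for the 10 tested without one, and 0 were called in limma. Of these 9, MGMT, a DNA repair gene with 3 gained regions, had -0.63 (SE 0.16), with lower values in 5 of 5 lines, an unadjusted p under 0.05 and an adjusted p of 0.24 in limma. RARB, a retinoic acid receptor with 2 gained regions, had 0.60 (SE 0.27, adjusted p = 0.41). Of 20 actin regulators, 6 had a gained region (10 of 173 distal regions, 5.78%). The 4 tested, VASP, ARPC1B, FSCN1 and EVL, had log2 fold changes of -0.17 to 0.05, against a median of 0.47 for 14 without one. Of 550 zinc finger genes, 89 had a gained region (145 of 2517 distal regions, 5.76%). The 83 tested had a median of 0.040, against 0.24 for 430 without one. Long intergenic RNAs were listed for 356 gained regions (5.71% of their distal regions) and keratins for 10 (5.71%), HOX genes for 4 (7.27%), olfactory receptors for 26 (6.86%) and clustered protocadherins for 0 of 6.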

How the data were processed

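ATAC-seq peaks were called by the authors in each library with MACS2 2.2.5 in broad mode after alignment to hg19 with BWA 0.7.17-r1188, removal of duplicate, unpaired and mitochondrial reads with Picard 2.21.4 and SAMtools 1.9, and annotation with ChIPseeker 1.20.0. The deposited peak values are positions, fold enrichment (a ratio over the local background), and the -log10 of the p-value and q-value. The mRNA-seq values are FPKM that the authors made with DESeq2 1.24.0 on GENCODE genes; the deposited mean normalized signal over the 12 libraries served to recover read numbers (22.2 to 25.3 M reads in genes, and 59.7 and 52.6 M in H1299 Mock and DAC, where 82.6 and 80.0% of the low values were even numbers of reads). All low values came out whole within 0.05 reads. The sources used here name both TopHat2 2.1.1 and another aligner for the mRNA-seq.

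Peaks were merged at 1 bp of overlap and sequences read from GRCh37 with pysam 0.24.0. FPKM was tested with limma 3.58.1 in R 4.3.3 on log2(FPKM + 0.1), over genes with a mean of at least 0.1, with the cell line as a block, since Mock and DAC of a number are the same line, and Benjamini-Hochberg adjustment over all 22603 genes. Per-line differences in sequence were tested with an exact two-sided sign-flip permutation test. On simulated data for this comparison, limma recovered 17, 38, 41 and 50 of 50 genes changed by log2 fold changes of 1, 2, 3 and 4. Alternatives were other thresholds, list sizes, pseudocounts, filters and scalings, and each line left out. Genes named were those past the threshold, the 8 with most regions, the 8 highest and 5 lowest changed alike in 5 of 5 lines and those nearest to named regions; the gene lists are described in the same way, and further names were chosen after their values were seen. The regions and gene lists were chosen with earlier results of these data known. As each line had 1 culture per treatment in each assay, p-values measure the spread between lines. Some sequences and 1 of the genes with most regions are not reported here.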

Additional observations from a re-analysis of the deposited data

Results flagged for a closer look

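On chromosome X, 4.69% of the distal regions in the DAC list labelled CL1-5 were gained regions, against 9.67 to 9.98% in the other 3 lists. The library stood apart from the other 3 by Dixon's test. It was 1 of 25 groups of 4 lists tested, and chance flags about 1 in 20 groups. Signal was also seen in H1792, which has mRNA-seq only and was outside the limma fit. There SPDYC had a log2 fold change of 4.49, from 0 to 2.14 FPKM, and TSPYL6 one of 2.77, from 0 to 0.580 FPKM, each from 1 library per treatment and without a test.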

How the results depend on the processing

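The gained regions numbered 5482 and the lost ones 1070 (ratio 5.12) for peaks with a -log10 q of at least 2, 2342 and 215 (10.9) for at least 3 lines, and 5003 and 3910 (1.28) with the same number of peaks within each line. With the same number in all 8 lists, chosen after seeing the data, 2603 were gained and the ratio was 1.496, and with peaks covering 50% of the region it was 4.61. Without 1 line, gained regions numbered 7434 to 8680, lost ones 1484 to 2011 and the ratio was 4.24 to 5.85, highest without CL1-5. Nearest genes higher in limma numbered 7 with H1792 included, 5 after rescaling to TPM, 46 in limma-voom (chosen after seeing the data), 1 without the replicate block, 1 at a pseudocount of 0.01, 1 for regions from equal peak numbers, and 0 with no filter, at a pseudocount of 1 or in the 4 lines with ATAC-seq, and 0 to 1 without 1 line (0 without A549, CL1-0 or CL1-5). None was lower in any of these fits. The median log2 fold change of nearest genes was 0.19 after TPM rescaling, 0.16 in limma-voom and -0.0034 after quantile normalization, where that of all genes was 0.19, 0.17 and -0.039, and 0.042 to 0.085 without 1 line. The mean excess of 2-fold higher nearest genes was -0.164 percentage points at a pseudocount of 1 and -2.95 to -1.60 without 1 line. Without 1 line, the CpG difference ranged from -0.145 (without CL1-5) to 0.173 and was -0.029 without PC9, and that of GC content from 0.569 to 1.05. In windows of 1000 bp they were 0.558 and 0.969, and against regions in 1 DAC list and no Mock list 1.52 and 2.80. The cause of these shifts was not tested. The depth of each ATAC-seq library is not given in the sources used here, which limits what the absence of a peak shows.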
